A study of Homo sapiens with 6 samples.

Results

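The proteasome genes described here were all gene symbols in the deposited count table that begin with PSM, continue with a letter from A to G and end in a number. They numbered 46 of 21676 rows, and all 46 passed the filter on low counts. They were sorted by what their proteins do into 7 alpha ring subunits, 7 constitutive beta ring subunits, 3 immunoproteasome subunits, 6 ATPases and 11 non-ATPases of the regulatory particle, 7 assembly factors, and 5 other caps and inhibitors. PSMA8 and PSMB11, the testis and thymus forms, were not among the 21676 rows. The RNA came from the 83 cell line, which the submitters call a SACC cell, a term that usually stands for salivary adenoid cystic carcinoma. The groups were 3 libraries of 83 cells that overexpressed ApoD, a secreted lipocalin that carries small lipids, and 3 libraries of control 83 cells. The labels give neither the vector nor what the control cells received, nor whether the overexpressing cells were a clone. They do not say that the libraries came from separate cultures, so each p-value rests on the spread among these 6 libraries alone, and that spread may be technical.

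The proteasome is the barrel-shaped protease that degrades proteins tagged with ubiquitin. Its core is a stack of rings: the outer alpha rings gate the entrance, and the inner beta rings hold the cutting sites. A regulatory particle sits on the end of the core, binds and deubiquitinates the substrate, unfolds it with a ring of ATPases and feeds it in. Under interferon gamma, cells replace the catalytic beta subunits PSMB5, PSMB6 and PSMB7 with PSMB8, PSMB9 and PSMB10, which changes the peptides made for antigen presentation. When proteasome activity is short, the transcription factor NRF1, encoded by NFE2L1, is processed and raises the transcription of most constitutive subunit genes.

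The libraries held 37542568 to 40416964 counts with ApoD overexpression and 38845545 to 39583565 counts in controls, and each proteasome gene had 1243 to 24174 counts in each library. Mitochondrially encoded genes took 3.19% to 3.54% of counts with ApoD overexpression and 4.1% to 4.5% in controls, and 17378 to 17789 genes had a count with ApoD overexpression and 18591 to 18685 in controls. The part of these library measures, which separated the groups, was not tested. APOD had 1781 counts summed over the ApoD overexpression libraries and 19 over the controls. All 8 epithelial markers checked had counts, and their summed level was 3616 to 4107 CPM (read counts relative to library size, after TMM scaling by the trimmed mean of log ratios) with ApoD overexpression and 3149 to 4172 CPM in controls. Of these, CDH1, KRT14, TP63 and EPCAM fell, KRT7 rose, and KRT8, KRT18 and KRT5 did not pass the test. The 3 endothelial markers summed to 1.35 to 2.30 CPM with ApoD overexpression and 8.0 to 13.3 CPM in controls, and the 4 fibroblast markers to 9.82 to 13.8 CPM and 26.9 to 32.6 CPM. Of 6 blood and immune markers 5 had a row. PTPRC and LYZ had 0 counts with ApoD overexpression and 13 and 2 in controls, and nearly all of the list's 36.7 to 38.6 CPM with ApoD overexpression and 15.7 to 32.9 CPM in controls came from CD68. The part of these markers in the proteasome results was not tested. In these bulk libraries, fewer cells of a type and less RNA per cell cannot be told apart.

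The transcripts of the constitutive proteasome were higher with ApoD overexpression in nearly every class, while the immunoproteasome subunits and the activator subunit PSME1 were not. Of the 46 genes 35 rose, 2 fell and 9 did not pass the test (edgeR quasi-likelihood test, Benjamini-Hochberg adjusted p under 0.05 over 14629 genes). Over all tested genes, 24.2% rose and 24.6% fell, 48.8% in all. The groups did not overlap in 35 proteasome genes with ApoD overexpression above and in 2 with it below, while over all tested genes this held for 29% and 29.7%, 58.7% in all. The median log2 fold change, ApoD overexpression over control, was 0.45 for the proteasome genes and −0.02 for all tested genes, and single genes ran from −0.39 to 1.04. The 2 genes that fell were PSMB9 and PSME1.

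**Figure D1:**
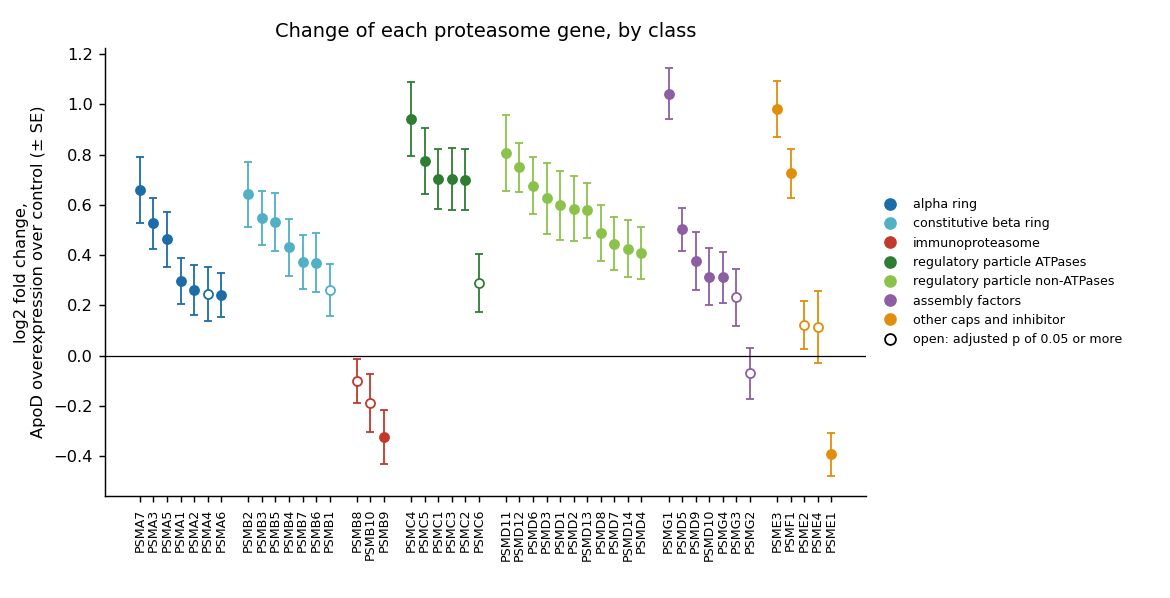
Log2 fold change (ApoD overexpression over control) of each of the 46 proteasome genes on the y axis, with the standard error as bars and genes grouped by class along the x axis. Filled points passed an adjusted p of 0.05. All 11 non-ATPases of the regulatory particle lie above 0 and are filled, and the 3 immunoproteasome genes lie below 0, with PSMB9 filled.

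The count of rising genes depended on how libraries were scaled. With library totals alone, 28 proteasome genes rose and 4 fell, against 17.6% and 30.3% of all tested genes, and the median log2 fold change was 0.34 for the proteasome genes and −0.13 for all tested genes. With each library's trend with abundance removed, 24 proteasome genes rose and 3 fell, against 22.1% and 23.1% of all tested genes, and the median of the proteasome genes was 0.28. When the fit held only the 9040 genes averaging at least 500 counts, 28 proteasome genes rose and 2 fell, against 26.5% and 26.2%. In total 22 proteasome genes rose in the main test and in all 17 alternatives, while neither PSMB9 nor PSME1 fell in all of them.

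**Figure D2:**
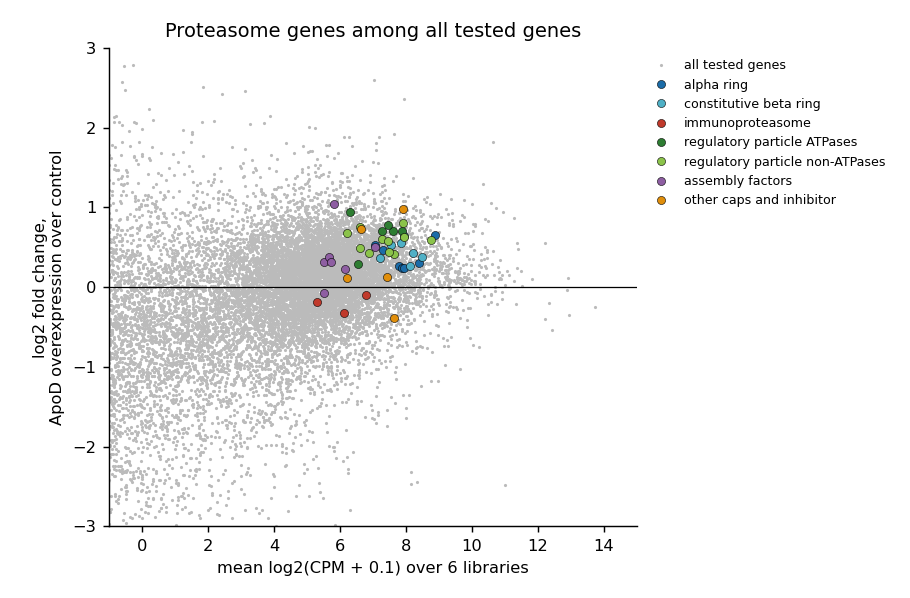
Log2 fold change (ApoD overexpression over control, y axis) against mean log2(CPM + 0.1) over 6 libraries (x axis) for all tested genes in grey and the 46 proteasome genes coloured by class; 1157 tested genes outside the axes are not drawn. Most proteasome genes sit above 0 and among the more abundant genes.

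The replicate libraries differed in proteasome expression as a whole. Control replicate 1 had the highest CPM of the controls in 39 of 46 genes and was the control nearest to the ApoD overexpression mean in 38. Control replicate 3 had the lowest control CPM in 34 genes. Among the overexpressing libraries, replicate 2 had the highest CPM in 39 genes and replicate 1 the lowest in 29. The 46 genes together took 0.868%, 0.967% and 0.880% of all counts with ApoD overexpression, against 0.791%, 0.677% and 0.657% in controls, so the groups did not overlap in this share. Without control replicate 1, 37 proteasome genes rose and 2 fell. Without control replicate 2, 28 rose and 1 fell, and without control replicate 3, 28 rose and 2 fell. Leaving out ApoD overexpression replicate 1, 2 or 3 gave 37, 30 and 34 that rose and 1, 3 and 1 that fell. The shares of all tested genes in these fits are not given here.

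Promoter sequence was examined for the genes whose transcripts moved most and for interferon-responsive members, with RefSeq windows on build GRCh38.p14 of 250 bases before and 50 bases from the annotated start. Windows were used for 40 of the 46 genes, all except PSMA7, PSMB1, PSMB6, PSMB7, PSMD4 and PSMG3. The stretches printed here are 100 bases each, read 5′ to 3′ on the gene's strand. PSMG1, PSME3 and PSMD12 were taken from the 6 largest changes, and PSMB9 and PSMB10 from the immunoproteasome genes. PSME2 was taken as the partner of PSME1. Each stretch was also chosen to hold a motif. PSMC4, PSMD11 and PSMC5, the others of the 6 largest changes, and the immunoproteasome gene PSMB8 are not printed. Capitals mark a TGACNNNGC core of the antioxidant response element in PSMG1, PSMD12 and PSMB9 (in PSMB9 on the opposite strand, so read as its reverse complement), the interferon-stimulated response element GAAANNGAA in PSMB10 and PSME2, and a CCAAT box on the opposite strand in PSME3.
PSMG1 (chr21:39183552-39183651, minus strand): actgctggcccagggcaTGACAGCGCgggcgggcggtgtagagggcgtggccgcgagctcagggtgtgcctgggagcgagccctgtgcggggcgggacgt
PSMD12 (chr17:67366678-67366777, minus strand): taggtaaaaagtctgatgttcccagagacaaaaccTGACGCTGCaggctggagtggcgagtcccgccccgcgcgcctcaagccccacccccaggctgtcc
PSME3 (chr17:42833297-42833396, plus strand): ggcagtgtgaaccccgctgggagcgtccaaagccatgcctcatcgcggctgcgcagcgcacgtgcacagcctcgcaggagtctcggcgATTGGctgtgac
PSMB9 (chr6:32853992-32854091, plus strand): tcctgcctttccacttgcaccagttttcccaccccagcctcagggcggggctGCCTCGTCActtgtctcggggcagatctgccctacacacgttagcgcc
PSMB10 (chr16:67936851-67936950, minus strand): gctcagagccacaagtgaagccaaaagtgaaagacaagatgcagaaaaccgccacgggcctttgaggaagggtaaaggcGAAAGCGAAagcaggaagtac
PSME2 (chr14:24146611-24146710, minus strand): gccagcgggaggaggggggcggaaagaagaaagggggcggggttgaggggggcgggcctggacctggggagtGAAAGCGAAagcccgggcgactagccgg

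Motifs were counted on both strands, as a description of letters and not of bound sites, and matches of different motifs could overlap. TGACNNNGC, the core bound by NRF1 and NRF2, stood in 13 of the 40 windows (32.5%), against 13.35% of 35116 RefSeq windows of the same length. Of the 31 genes with a window that rose, 8 had it. It was also found in PSMB9 and PSME1, which fell, and in PSMG2, PSME2 and PSME4, which did not pass the test. GAAANNGAA stood in 7 windows (17.5%), against 8.107% of all windows, and 3 of these 7 genes rose. PSMB8 and PSMB9 did not have it. The interferon-gamma activated site TTCNNNGAA stood in 4 windows (10%), against 7.657% of all windows, and all 4 of these genes rose. CCAAT stood in 18 windows (45%), against 34.61% of all windows, and in 17 of the 31 genes that rose. PSMD11 and PSMB8 had none of these motifs. PSMC5 had only CCAAT, and PSMC4 had TGACNNNGC past the annotated start and TTCNNNGAA before it.

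Of the 7 alpha ring genes, which build the gate, 6 rose, with log2 fold changes of 0.24 to 0.66 over all 7 and a median of 0.30. PSMA7 had the highest level per transcript length of all 46 genes, at 598 ± 61.4 FPKM (fragments relative to transcript length and library size) with ApoD overexpression and 411 ± 70.1 FPKM in controls (SD, n = 3 each). Its expression was 554, 680.4 and 566 CPM with ApoD overexpression, against 461, 356 and 324 CPM in controls. All overexpressing libraries lay above all controls, and control replicate 1 was the highest control. The log2 fold change of PSMA7 was 0.66 ± 0.13 (SE), with an edgeR adjusted p of 0.00148. PSMA3 and PSMA5 followed with log2 fold changes of 0.53 ± 0.10 and 0.46 ± 0.11 (edgeR adjusted p 0.0012 and 0.00431). PSMA1, PSMA2 and PSMA6 rose by 0.30, 0.26 and 0.24 on the log2 scale, and these calls were less stable. Each was lost without control replicate 2 (edgeR adjusted p 0.0835, 0.157 and 0.126) or without control replicate 3 (0.0709, 0.112 and 0.107). PSMA2 and PSMA6 were also lost without ApoD overexpression replicate 2 (0.15 and 0.105), and PSMA6 without replicate 3 (0.0580). PSMA4, at a log2 fold change of 0.24 ± 0.11, did not pass (edgeR adjusted p 0.0754). It had 248 to 259.5 CPM in the overexpressing libraries, and control replicate 1, at 249 CPM, lay inside that range. Without that control its adjusted p was 0.00711.

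The constitutive beta ring gave a like picture, with 6 of 7 genes higher, log2 fold changes of 0.26 to 0.64 and a median of 0.43. PSMB2, a structural subunit, changed most, at 0.64 ± 0.13 (edgeR adjusted p 0.00158), followed by PSMB3 at 0.55 ± 0.11 (adjusted p 0.00123). PSMB5, which carries the chymotrypsin-like site, had 202, 256 and 215 CPM with ApoD overexpression, against 177, 145 and 144 CPM in controls. Its log2 fold change was 0.53 ± 0.12 (edgeR adjusted p 0.00241). PSMB6, which carries the caspase-like site, had 161, 185 and 162 CPM with ApoD overexpression, against 156, 117 and 120.3 CPM in controls. The groups were separate for both, but for PSMB6 control replicate 1 came close below the lowest overexpressing library. The PSMB6 log2 fold change was 0.37 ± 0.12 (edgeR adjusted p 0.021), a call lost without control replicate 2 (0.107), control replicate 3 (0.0694) or ApoD overexpression replicate 2 (0.0749). PSMB7, which carries the trypsin-like site, had 378, 463 and 378 CPM with ApoD overexpression, against 336, 320.1 and 285 CPM in controls. Its log2 fold change was 0.37 ± 0.11 (edgeR adjusted p 0.0119), and the adjusted p was 0.0564 without control replicate 3. PSMB1 did not pass, at 0.26 ± 0.11 (edgeR adjusted p 0.0566), with the groups overlapping at control replicate 1. It passed without that control (0.0202) or without ApoD overexpression replicate 1 (0.0273).

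The 3 immunoproteasome genes were not higher with ApoD overexpression. Of the 3, 1 fell and 2 did not pass the test, and their median log2 fold change was −0.19. PSMB8, which takes the place of PSMB5, had 103, 113 and 102 CPM with ApoD overexpression, against 115, 118 and 108 CPM in controls. The groups overlapped, and its log2 fold change was −0.10 ± 0.09 (edgeR adjusted p 0.367). PSMB9, which takes the place of PSMB6 and whose promoter stretch is printed above, had 64.6, 66.2 and 56.4 CPM with ApoD overexpression, against 74.8, 88.4 and 71.2 CPM in controls. All overexpressing libraries lay below all controls, and control replicate 2 stood highest. PSMB9 fell, with a log2 fold change of −0.32 ± 0.11 (edgeR adjusted p 0.0261). The call was lost without control replicate 2 (0.159), ApoD overexpression replicate 1 (0.0579) or ApoD overexpression replicate 3 (0.159). PSMB10, which takes the place of PSMB7, had 35.8, 41.7 and 32.4 CPM with ApoD overexpression, against 44.5, 42.7 and 38 CPM in controls. ApoD overexpression replicate 2 lay among the controls, and the log2 fold change was −0.19 ± 0.12 (edgeR adjusted p 0.2, and 0.0431 without that library). With library totals in place of TMM, PSMB8 and PSMB10 also fell, with edgeR adjusted p of 0.0415 and 0.0406. PSMB8 and PSMB9 lie in the class II region of chromosome 6 and overlap each other on opposite strands. PSMB9 also overlaps TAP1 in GENCODE release 29. The strand setting of the counting is not given in the sources used here, so reads in the shared parts cannot be told apart.

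Set against the subunits they replace, the immunoproteasome transcripts were a smaller share with ApoD overexpression in every library. These ratios are of FPKM within a library and do not depend on library scaling. The PSMB8 to PSMB5 ratio was 0.415, 0.360 and 0.388 with ApoD overexpression, against 0.530, 0.666 and 0.613 in controls. The PSMB9 to PSMB6 ratio was 0.333, 0.297 and 0.289 with ApoD overexpression, against 0.398, 0.628 and 0.491 in controls. The PSMB10 to PSMB7 ratio was 0.0955, 0.0906 and 0.0864 with ApoD overexpression, against 0.133, 0.134 and 0.134 in controls. No ratio overlapped between the groups, and control replicate 1 was the control closest to the overexpressing libraries in all 3. The differences in mean log2 ratio, ApoD overexpression minus control, were −0.63, −0.70 and −0.56. With 3 libraries against 3, the two-sided exact permutation test cannot go below a p of 0.1. It gave that value for each of the 3 pairs, also after adjustment over them, so this test cannot take these differences past 0.05. The summed FPKM of PSMB8, PSMB9 and PSMB10 over that of PSMB5, PSMB6 and PSMB7 was 0.227, 0.203 and 0.208 with ApoD overexpression, against 0.291, 0.359 and 0.328 in controls.

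**Figure D3:**
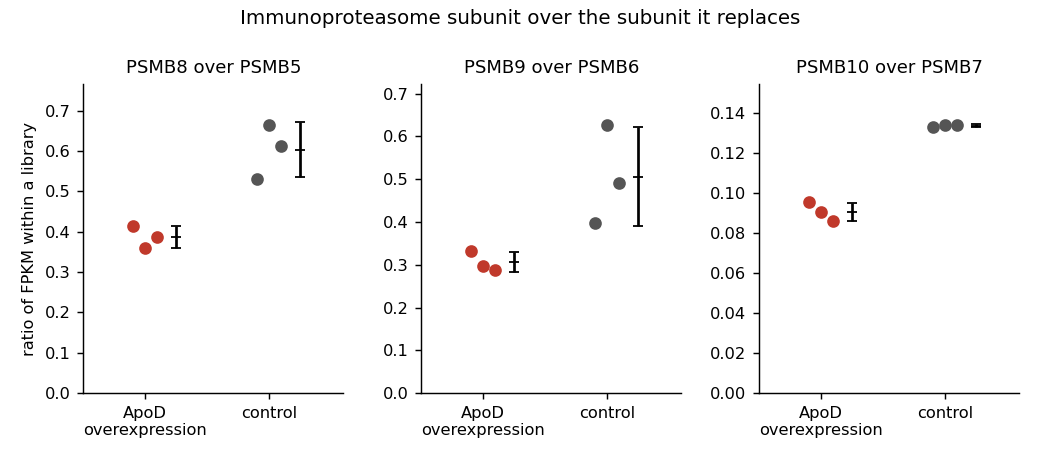
Ratio of FPKM of each immunoproteasome subunit to the constitutive subunit it replaces (y axis, from 0) in the 3 ApoD overexpression libraries, left, and the 3 control libraries, right, with mean and SD as bars beside the points. In all 3 panels the overexpressing libraries lie below the controls, with means of 0.387 against 0.603 for PSMB8 over PSMB5.

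In the regulatory particle 16 of 17 genes rose, with a median log2 fold change of 0.63. Of the 6 ATPases, which unfold the substrate, 5 rose. PSMC4 changed most, with 98.5, 118 and 111 CPM with ApoD overexpression, against 72.8, 50.3 and 47.4 CPM in controls. Its groups were well apart even though control replicate 1 stood above the other controls, and the log2 fold change was 0.94 ± 0.15 (edgeR adjusted p 0.00029). PSMC5 had 211, 244 and 233 CPM with ApoD overexpression, against 163, 129 and 109.8 CPM in controls, a log2 fold change of 0.77 ± 0.13 (edgeR adjusted p 0.00046). PSMC1, PSMC2 and PSMC3 each had a log2 fold change of 0.70 ± 0.12, with edgeR adjusted p of 0.000481, 0.000541 and 0.000647. GENCODE names 13 pseudogenes of PSMC1, more than for any other of the 46 genes, and how reads shared with them were assigned is not given in the sources used here. PSMC6 was the exception at 0.29 ± 0.11 (edgeR adjusted p 0.0532). Its ApoD overexpression replicate 2, at 95.7 CPM, lay below control replicate 1, at 99.8 CPM, and the adjusted p was 0.00238 without that control and 0.0452 without that overexpressing library.

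All 11 non-ATPase genes rose, with log2 fold changes of 0.41 to 0.81 and a median of 0.58, and in all 11 the overexpressing libraries lay above the controls. PSMD11, which helps join the core to the regulatory particle, had 301, 332 and 339 CPM with ApoD overexpression, against 241, 167 and 148 CPM in controls. Its log2 fold change was 0.81 ± 0.15 (edgeR adjusted p 0.00099). PSMD12, a scaffold subunit of the lid and the second promoter printed above, had 136, 121 and 124 CPM with ApoD overexpression, against 82.9, 68.9 and 74.6 CPM in controls. The controls were closer together here than for PSMD11, and the log2 fold change was 0.75 ± 0.10 (edgeR adjusted p 8.16e-05). The large scaffold subunits PSMD1 and PSMD2 had log2 fold changes of 0.60 ± 0.14 and 0.58 ± 0.13 (edgeR adjusted p 0.00349 and 0.00274). The ubiquitin receptor PSMD4 had the smallest change of the class, 0.41 ± 0.10 (edgeR adjusted p 0.00682). PSMD14, the deubiquitinase of the lid, had 0.43 ± 0.11 (edgeR adjusted p 0.00802), and its adjusted p was 0.0503 without control replicate 2. The other 5, PSMD3, PSMD6, PSMD7, PSMD8 and PSMD13, had log2 fold changes of 0.63, 0.68, 0.45, 0.49 and 0.58.

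Of the 7 assembly factors 5 rose and 2 did not pass the test, and their log2 fold changes ran from −0.07 to 1.04. PSMG1 and PSMG2 form a heterodimer that guides alpha ring assembly, and PSMG1 rose while PSMG2 did not pass the test. PSMG1 had 76.1, 88.7 and 76.8 CPM with ApoD overexpression, against 41.9, 36.5 and 38.9 CPM in controls. This was the largest change of the 46 genes, with tight replicates in each group, a 2.06-fold rise and a log2 fold change of 1.04 ± 0.10 (edgeR adjusted p 1.13e-05). PSMG2 had 45.0, 48.6 and 41.4 CPM with ApoD overexpression, against 43.3, 49.4 and 48.9 CPM in controls. Those libraries overlapped, and the log2 fold change was −0.07 ± 0.10 (edgeR adjusted p 0.598), a sign that turned without ApoD overexpression replicate 3. The PSMG1 to PSMG2 ratio of FPKM was 0.922, 0.995 and 1.013 with ApoD overexpression, against 0.527, 0.403 and 0.434 in controls.

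PSMG3 and PSMG4 form the other chaperone pair of the alpha ring. PSMG4 had the lowest level per length of the 46 genes, 4.47 ± 0.368 FPKM with ApoD overexpression and 3.91 ± 0.205 FPKM in controls (SD, n = 3 each), and overlaps SLC22A23 on the other strand. Its expression was 47.1, 56.3 and 48.9 CPM with ApoD overexpression, against 39.2, 43.0 and 40.5 CPM in controls. The groups were apart by a small margin, and the log2 fold change was 0.31 ± 0.10 (edgeR adjusted p 0.0235). The adjusted p was 0.0568 without control replicate 1, 0.0613 without control replicate 3 and 0.0784 without ApoD overexpression replicate 2. PSMG3 did not pass, with a log2 fold change of 0.23 ± 0.11 (edgeR adjusted p 0.108, and 0.0221 without ApoD overexpression replicate 1). The regulatory particle chaperones PSMD5, PSMD9 and PSMD10, which hold ATPases during assembly, rose with log2 fold changes of 0.50 ± 0.09, 0.38 ± 0.12 and 0.31 ± 0.11 (edgeR adjusted p 0.000508, 0.0171 and 0.0356). The PSMD9 call was lost without control replicate 2 (0.0569), control replicate 3 (0.0664) or ApoD overexpression replicate 2 (0.0638), and the PSMD10 call without control replicate 2 (0.147) or ApoD overexpression replicate 2 (0.141).

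Of the 5 other caps and inhibitors 2 rose, 1 fell and 2 did not pass the test. PSME1 and PSME2 are the interferon-inducible subunits of the ring-shaped activator that works with the immunoproteasome, and their genes lie close together on chromosome 14. PSME1 had 172, 181 and 162 CPM with ApoD overexpression, against 222, 235 and 219 CPM in controls. All overexpressing libraries lay well below all controls, and PSME1 fell with a log2 fold change of −0.39 ± 0.09 (edgeR adjusted p 0.00268). PSME2 had 178, 196 and 168 CPM with ApoD overexpression, against 180.3, 163 and 155 CPM in controls. The groups overlapped, and its log2 fold change was 0.12 ± 0.10 (edgeR adjusted p 0.319), a sign that turned with the abundance trend removed. The PSME1 to PSME2 ratio of FPKM was 0.806, 0.772 and 0.807 with ApoD overexpression, against 1.03, 1.2 and 1.18 in controls, so the ratio did not overlap between groups either.

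PSME3, which forms a separate nuclear activator of the core, had 315, 357 and 344 CPM with ApoD overexpression, against 201, 161 and 153 CPM in controls. Every overexpressing library was far above every control, with a log2 fold change of 0.98 ± 0.11 (edgeR adjusted p 3.27e-05). PSME3 overlaps BECN1 on the other strand. PSMF1, named as an inhibitor of the core, had 118, 139 and 126 CPM with ApoD overexpression, against 82.4, 77.7 and 71.3 CPM in controls. The groups were again separate, and the log2 fold change was 0.73 ± 0.10 (edgeR adjusted p 9.61e-05). PSME4, a large nuclear activator, had 80.3, 64.3 and 85.7 CPM with ApoD overexpression, against 85.4, 69.3 and 58.3 CPM in controls. Its libraries overlapped widely, and the log2 fold change was 0.11 ± 0.14 (edgeR adjusted p 0.539), a sign that turned with the abundance trend removed.

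The proteasome genes were far from equal in transcript level per length. On the FPKM scale the median over the 46 genes was 75.7 with ApoD overexpression and 62.1 in controls, against 4.68 and 5.38 for all tested genes. The highest gene, PSMA7, exceeded the lowest, PSMG4, 134-fold with ApoD overexpression and 105-fold in controls. Within the alpha ring PSMA7 exceeded PSMA5 12.7-fold with ApoD overexpression and 11.1-fold in controls. Within the constitutive beta ring PSMB7 exceeded PSMB2 6.06-fold and 7.31-fold, and among the ATPases PSMC3 exceeded PSMC6 6.17-fold and 4.64-fold. On this scale these spreads were wider than the largest fold change among the 46 genes, 2.06 for PSMG1 in the TMM-scaled test. In FPKM, PSMG1 had means of 38.1 with ApoD overexpression and 20.1 in controls. Deposited gene lengths set this scale, such as 984 bases for PSMB7 and 4528 for PSMB2, and transcript forms of other lengths would move it. CPM does not divide by length. The pairs named here were picked by FPKM and are not all the highest and lowest of their class in CPM. In CPM, PSMB7 and PSMB2 had means of 406 and 309 with ApoD overexpression and 314 and 198 in controls, a spread below 2.06. The lowest constitutive beta gene in CPM was PSMB6, with 169 with ApoD overexpression and 131 in controls. PSMB7 exceeded PSMB6 by more than 2.06-fold in both groups. PSMA7 and PSMA5 had 600 and 187 CPM with ApoD overexpression and 380 and 136 in controls. PSMC3 and PSMC6 had 301 and 103 CPM with ApoD overexpression and 185 and 84.4 in controls.

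**Figure D4:**
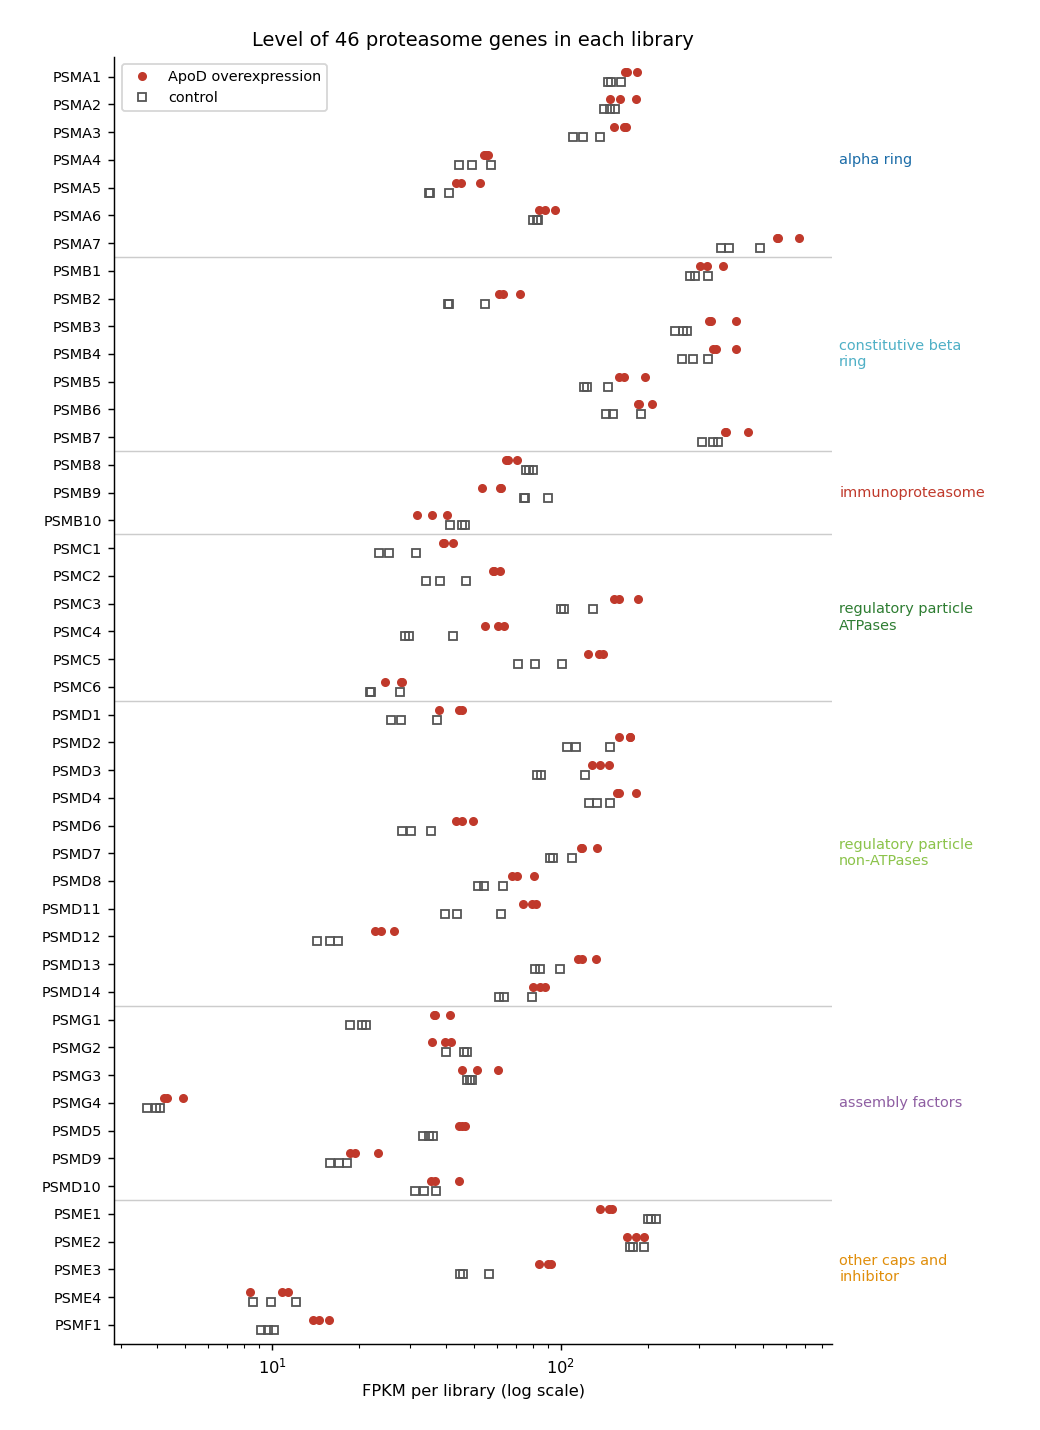
FPKM of each of the 46 proteasome genes in each library (x axis, log scale), with ApoD overexpression as filled circles above controls as open squares and classes separated by lines. Mean levels with ApoD overexpression run from 4.47 FPKM for PSMG4 to 598 FPKM for PSMA7. On this scale, which does not use TMM, the overexpressing libraries lie to the left of the controls for PSMB8, PSMB9, PSMB10 and PSME1.

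FPKM were also summed over each class. The deposited FPKM divide by library totals without TMM, which places the ApoD overexpression over control difference 0.12 lower on the log2 scale than in CPM. The 6 ATPases summed to 485 ± 29.3 FPKM with ApoD overexpression and 318 ± 52.8 FPKM in controls (SD, n = 3 each), a ratio of 1.52. The 11 non-ATPases summed to 1064 ± 50.6 FPKM with ApoD overexpression and 789 ± 112 FPKM in controls, a ratio of 1.35. The alpha ring and the constitutive beta ring had ratios of 1.29 and 1.23. The assembly factors had a ratio of 1.18. The immunoproteasome genes summed to 162 ± 11.5 FPKM with ApoD overexpression and 202 ± 12.1 FPKM in controls, a ratio of 0.80, and all overexpressing libraries lay below all controls. The other caps and inhibitors, with a ratio of 0.966, overlapped between the groups. The regulatory particle sum over the core sum was 0.495, 0.468 and 0.512 with ApoD overexpression, against 0.466, 0.430 and 0.418 in controls, which separated the groups by a small margin between ApoD overexpression replicate 2 and control replicate 1.

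**Figure D5:**
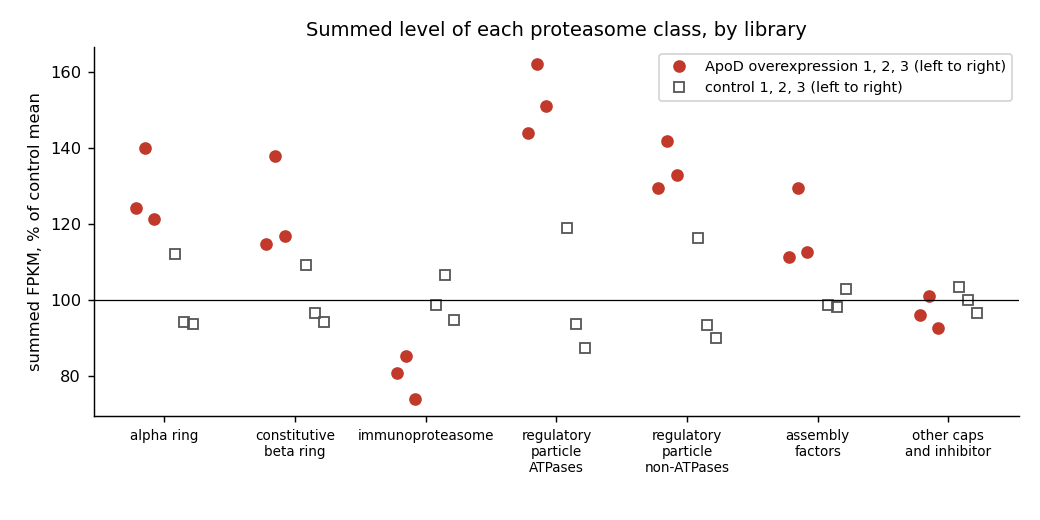
Summed FPKM of each proteasome class in each library, as a percent of the control mean (y axis), with ApoD overexpression as filled circles and controls as open squares. The ATPases of the overexpressing libraries reach 144% to 162%, and the immunoproteasome sums lie at 73.9% to 85.2%, below the controls.

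Genes that work with the proteasome but carry other names followed the constitutive subunits in part. Of 15 such partners 11 rose and 4 did not pass the test, with a median log2 fold change of 0.31. ADRM1, a ubiquitin receptor of the regulatory particle, had 256, 324 and 284 CPM with ApoD overexpression, against 181, 155 and 151 CPM in controls (log2 fold change 0.83 ± 0.11, edgeR adjusted p 8.99e-05). POMP, the maturation protein that helps the core assemble, had 177, 205 and 178 CPM with ApoD overexpression, against 140.2, 125 and 115 CPM in controls (0.56 ± 0.10, edgeR adjusted p 0.000796). In both, the groups were separate. TXNL1 and UBQLN4 had log2 fold changes of 0.62 and 0.54 (edgeR adjusted p 0.000636 and 0.00121). SEM1, the small lid subunit, had a log2 fold change of −0.05 (edgeR adjusted p 0.654) and PAAF1, a regulatory particle chaperone, one of −0.25 (0.088).

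The list for control of subunit genes by NRF1 had 8 genes, among them NFE2L2, which encodes NRF2, a separate factor. Of these 8 genes 2 rose, 1 fell and 5 did not pass the test, and the share that rose was near the 24.2% of all tested genes. NFE2L2 was among the 5, with a log2 fold change of −0.17 (edgeR adjusted p 0.184). It fell in some alternatives, such as library totals (0.0381) and the abundance trend removed (0.0211). NFE2L1 had 359, 355 and 370.5 CPM with ApoD overexpression, against 414, 468 and 401 CPM in controls. The groups did not overlap, and NFE2L1 fell with a log2 fold change of −0.24 ± 0.09 (edgeR adjusted p 0.0404). That call was lost without control replicate 2 (0.216), control replicate 3 (0.0644) or any ApoD overexpression library (0.141, 0.0558 and 0.133 without replicates 1, 2 and 3). NRF1 is controlled mainly as a protein, which was not measured. VCP, the ATPase that pulls NRF1 out of the membrane, rose with a log2 fold change of 0.55 ± 0.13 (edgeR adjusted p 0.00445), and MAFG, a DNA-binding partner, rose with 0.38 ± 0.09 (0.0038). Of 6 ubiquitin genes and activating enzymes 3 rose, among them UBA1 with a log2 fold change of 0.49 (edgeR adjusted p 0.00373) and UBB with 0.33 (0.0172). The UBB call was lost without control replicate 2 (0.0809), control replicate 3 (0.0723) or ApoD overexpression replicate 2 (0.0520).

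Among 14 genes of interferon control and peptide presentation 1 rose, 4 fell and 9 did not pass the test, with a median log2 fold change of −0.07. The share that fell was near the 24.6% of all tested genes. With library totals TAPBP and ERAP1 also fell (edgeR adjusted p 0.0194 and 0.0167). TAP2, a subunit of the peptide transporter, had 187, 202 and 193 CPM with ApoD overexpression, against 111, 86.4 and 82.1 CPM in controls (log2 fold change 1.06 ± 0.11, edgeR adjusted p 2.23e-05). Its partner TAP1, which neighbours PSMB9, had 127, 138 and 126 CPM with ApoD overexpression, against 133, 132 and 125 CPM in controls (0.00 ± 0.09, edgeR adjusted p 0.99). TAP2 thus separated the groups and TAP1 did not. HLA-E had 301, 320.4 and 297 CPM with ApoD overexpression, against 366, 513 and 516 CPM in controls (−0.60 ± 0.12, edgeR adjusted p 0.00174). CIITA, at 1.75, 1.49 and 1.25 CPM with ApoD overexpression, against 3.77, 5.74 and 2.56 CPM in controls, fell and was at a low level in both groups (−1.42 ± 0.31, edgeR adjusted p 0.00276). NLRC5, an activator of class I genes, fell with a log2 fold change of −0.39 (edgeR adjusted p 0.00917). The call was lost without control replicate 2 (0.0565) or ApoD overexpression replicate 3 (0.0676). IRF1 had a log2 fold change of −0.01 (edgeR adjusted p 0.968).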

How the data were processed

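RNA sequencing of 6 libraries gave the values used here. The authors deposited whole-number read counts per gene symbol and a table of FPKM values, per the file headers. The deposited FPKM equal the count divided by the library total and a fixed gene length for 108650 of 108650 values above 0 (relative tolerance 1e-06). Aligner, genome build and strand setting were not given in the sources used here.

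The count test was edgeR 4.0.16 in R 4.3.3 (quasi-likelihood), with TMM scaling, filterByExpr at a minimum count of 10 and two-sided Benjamini-Hochberg adjustment over 14629 genes. Standard errors are the log2 fold change over the root of its F statistic. Ratios of FPKM were compared with exact permutation tests (scipy 1.17.1). Alternatives were DESeq2 1.42.0, its size factors, library totals, limma 3.58.1 on log2(FPKM + 1) or log2(FPKM + 0.1), no filter, a minimum mean count of 500, removal of the abundance trend, glmTreat against 1.2-fold, a block for the replicate number, and the removal of each library in turn. The method was tested on simulated data.

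The members, classes, companion lists and alternatives were chosen with earlier results of these data known. Values per library were set by rule for the immunoproteasome genes and their counterparts, the 6 largest changes, the highest and lowest FPKM, and up to 4 genes of each companion list. Those of other genes were chosen after their values were seen. Some genes of the companion lists are not reported here by name.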

Additional observations from a re-analysis of the deposited data

How the results depend on the processing

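Of 782 results for single proteasome genes under 17 alternatives, 666 kept the call, 95 lost it, 21 gained it and 0 reversed a call. The genes that rose, 35 in the main test, numbered 22 with log2(FPKM + 1) unfiltered and 28 to 37 without single libraries. Those that fell numbered 4 with library totals, log2(FPKM + 1) or log2(FPKM + 0.1), 0 with glmTreat and 1 to 3 without single libraries. Alpha ring genes that rose numbered 3, and assembly factors 2, with library totals, the trend removed, a mean count of at least 500, glmTreat and each FPKM test, and 3 to 7 and 2 to 6 without single libraries. Constitutive beta genes that rose numbered 3 with the trend removed, glmTreat and unfiltered FPKM, and non-ATPases 7 with unfiltered FPKM. Immunoproteasome genes that fell numbered 3 with library totals and both filtered FPKM tests, 2 with the trend removed and with unfiltered FPKM, 0 with glmTreat and 0 to 2 without single libraries. Of the other caps 0 fell with glmTreat, where PSME1 had an adjusted p of 0.0677. The cause of these differences was not tested. The ratios of PSMB8, PSMB9 and PSMB10 to their counterparts kept their direction, with log2 differences of −0.724 to −0.560, −0.861 to −0.532 and −0.598 to −0.526 without single libraries.

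The labels do not say whether the replicate numbers pair the libraries. Deviations from the group mean correlated at −0.176, −0.0285 and −0.0986 between libraries with the same number. Between libraries with other numbers they correlated at −0.0704 to 0.136. With 3 libraries a group, these values cannot show whether the libraries were paired. With the number as a block, 32 proteasome genes rose and 2 fell. PSMA2, PSMA6 and PSMD10 were the calls lost (adjusted p 0.0939, 0.102 and 0.0743). The proteasome genes had at least 1243 counts in each library, and 3 libraries a group limit the exact test of the ratios.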
